A study of Arabidopsis lyrata subsp. lyrata with 8 samples.

Results

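The 300 brightest gene models of the Arabidopsis lyrata root were taken from 4 root arrays. A gene model here is a predicted gene of the A. lyrata genome, and 12409 of the 32386 models on the array carry the code of an Arabidopsis thaliana gene in their name. A model entered the ranking when its probe was well above background on all 4 root arrays, which held for 23232 models, 10666 of them with a code. These 10666 were ranked by mean level, where a level is the log2 signal of a probe minus log2 of the 75th percentile of its array, and the first 300 are the members described below. The last of the 300 stood at place 539 among all detected models, since 239 brighter models carried no code and were not described.

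The study hybridised RNA of A. lyrata roots and flower buds to 1-colour Agilent arrays, 8 in all, and the root group is the only group used here. The root plants were A. lyrata ssp. lyrata, with the further name col 0 in the growth protocol, 6 weeks old, raised in hydroponic culture, with no treatment, mutant or transgene named. Each of the 4 root replicates pooled the tissue of 8 to 10 plants, so differences between single plants are averaged within a replicate. Healthy roots were frozen at harvest and total RNA was labelled with Cy3.

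A growing root takes up water and ions, extends its cell walls, and makes ribosomes and proteins at a high rate. Water crosses root cells through aquaporins of the plasma membrane (PIPs) and the vacuole (TIPs). Extensins and arabinogalactan proteins are secreted glycoproteins of the wall and cell surface. In the mustard family, root cells also hold ER bodies, compartments rich in beta-glucosidases that act on glucosinolates and related defence compounds.

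The label was checked against marker genes. All 3 measured root hair markers, 4 of 4 of the endodermis, 2 of 2 of xylem and the measured markers of root cap, meristem and ER bodies were well above background on the 4 arrays. The Casparian strip gene CASP1, an endodermis marker, had levels of 3.21, 3.20, 3.33 and 4.08 on root arrays 1 to 4. Detection alone did not set root markers apart, since 2 of 3 leaf marker models (CAB1 at a mean level of -0.52 and RCA at -4.65) and 2 of 3 flower marker models were also well above background on all 4 arrays. The root cap marker BRN1 averaged -1.62 and the meristem marker CYCB1;1 -3.37. The leaf marker RBCS1A was well above background on 2 arrays. Of the flower markers, AP1 was below that threshold on all 4 arrays, while AP3 averaged -4.71 and PI -3.60. Of 3 pollen and tapetum markers, GRP19 and AMS were well above background on 0 arrays and VGD1 on 1.

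The 75th percentile of signal was 4468 on root array 1, 3612 on array 2, 2960 on array 3 and 2541 on array 4, and 73.0% to 75.2% of spots were well above background. No spot was saturated. Root array 4 stood apart: over the 300 members it correlated with the other 3 at r of 0.738 to 0.863, against 0.926 to 0.974 among those 3. All detected models span a wider range of levels than the members. Over them r was 0.971 to 0.979 with array 4 and 0.990 to 0.995 among the other 3. The spread without array 4 is given beside the groups and members for which it changed most. The 4 arrays had levels of 7 spike-in probes, for RNA added by the laboratory, averaging -0.46, -0.04, 0.35 and 0.63, the reverse of the order of the 75th percentiles. Which array was highest or lowest therefore depends on the scaling, and it is given for the 75th percentile scaling unless another is named. A probe's brightness also depends on its own sequence and binding, so the ranks order signals and not numbers of transcripts.

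The brightest model was PDF2.3, a member of the plant defensin family, with levels of 6.87, 7.03, 7.31 and 7.42 on root arrays 1 to 4. The vacuolar aquaporin TIP1;1 followed at 6.73, 7.02, 7.23 and 7.44. DOT1, a glycine-rich protein of the wall, read 6.65, 6.93, 7.08 and 7.27. In all of these array 1 was the lowest and array 4 the highest. TIP2;3, another vacuolar aquaporin, read 6.71, 7.03, 7.05 and 7.14. APX1, the cytosolic ascorbate peroxidase that removes hydrogen peroxide, stayed closer together at 6.70, 6.85, 6.96 and 6.86. An extensin-like protein (AT2G43150) spread wider, at 6.39, 6.70, 6.93 and 7.25.

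The seventh model, AT4 (AT5G03545), is a noncoding RNA that in A. thaliana is induced by phosphate starvation and binds the microRNA miR399. It had levels of 6.45, 6.59, 6.95 and 6.93, with arrays 3 and 4 above arrays 1 and 2. The rest of the first 20 held the peroxidase PRXR1, the latex-protein relative MLP34, the plasma membrane aquaporins PIP2;1, PIP2;7 and PIP2;2, an aspartyl protease (AT5G07030) and the cysteine protease RD19. It also held the dormancy-associated DRM2, the polyubiquitin UBQ3, the arabinogalactan proteins AGP31 and AGP12, the upstream open reading frame CPuORF9 of a polyamine synthesis gene, and the nucleoside diphosphate kinase NDPK1. NDPK1 had the narrowest levels of these 20, at 6.13, 6.21, 6.23 and 6.18. DRM2 had the widest, at 5.50, 6.38, 6.43 and 7.19. Of the first 20, 19 were lowest on array 1 and 15 highest on array 4. Over all 300 members 183 were lowest on array 1 and 161 highest on array 4, against 27.3% and 37.1% of all models with a code. With quantile normalization these counts were 92 and 103, against 26% and 38.4%, and with spike-in scaling 6 and 17, against 0.656% and 3.15%.

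**Figure D1:**
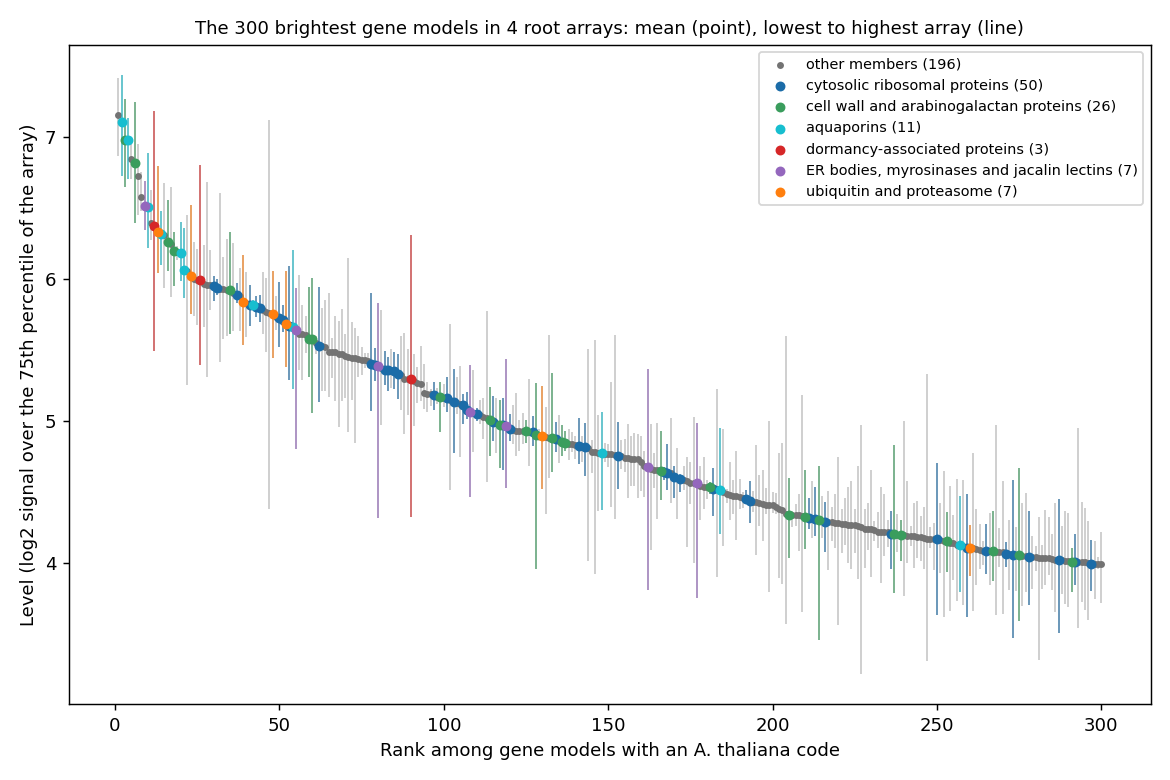
Mean level of each of the 300 members against rank, with a line from the lowest to the highest of the 4 root arrays; the y axis is log2 signal over the array's 75th percentile and 6 function groups are coloured. The means run from 7.16 at rank 1 to 3.99 at rank 300, and the 3 dormancy-associated members have long lines while most ribosomal proteins have short ones.

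The curve of level against rank was steep over the first members and flat near its end. GSH1, the first enzyme of glutathione synthesis, was the last member at a mean of 3.99. AT5G19590, the member just before it, and AT3G18410 and AT5G48810, the next models below the edge, also had means of 3.99, so the edge of the set separates models with nearly equal signal. On each array taken alone, 266, 282, 281 and 261 of the 300 were among that array's own brightest 300, and 225 were on all 4. The 300 models carried 294 distinct codes. They supplied 19.7%, 20.6%, 21.1% and 21.5% of the summed signal on root arrays 1 to 4.

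A function was assigned to 264 members from the A. thaliana code, 127 from lists of gene families and 137 from general knowledge after the ranking had been seen, and 36 were left without one. Cytosolic ribosomal proteins were the largest group with 50 members. Cell wall and arabinogalactan proteins had 26, mitochondrial and vacuolar energy proteins 15, signalling and transcription 15, aquaporins 11, and enzymes of amino acid, sulfur and thiol synthesis 11. A further 26 members with a known role shared no group. Across all models with a code, 2.81% were among the brightest 300. The lists were chosen with earlier results of these data known, so their shares beside this value are a description and not a test. Of the listed models well above background, the members were 50 of 123 ribosomal proteins (40.7%), 10 of 16 aquaporins (62.5%), 6 of 10 of nitrogen assimilation and transport (60%), 6 of 13 translation factors, 6 of 13 of ubiquitin and proteasome, and 4 of 5 RNA-binding proteins.

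**Figure D2:**
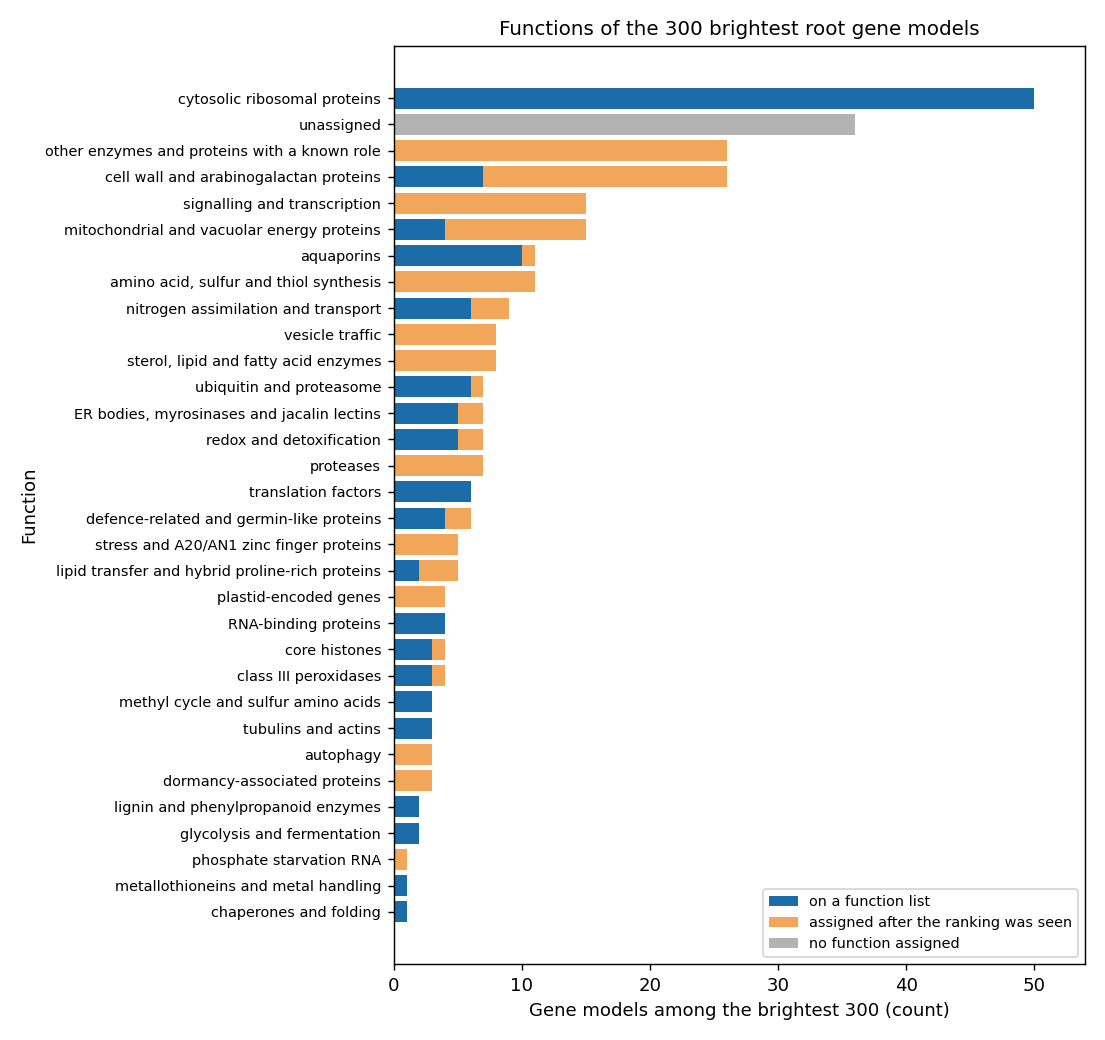
Number of the 300 members in each function group, split into members found on a function list, members assigned after the ranking was seen, and members with no function assigned. Ribosomal proteins form the longest bar with 50 members, followed by 36 unassigned models.

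Across the 300 members the median SD over the 4 arrays was 0.20 on the log2 scale, with quartiles of 0.12 and 0.31. The highest and lowest array differed by less than 2-fold for 262 members (87.3%), against 86.9% of all 10666 models with a code. For the 300 models ranked next the median SD was also 0.20, and 263 were under 2-fold. The last rank group had a median SD of 0.23, and all models with a code 0.22. How the members compared with all models depended on the scaling: the median SDs were 0.17 against 0.21 with quantile normalization, 0.39 against 0.52 with spike-in scaling, 0.18 against 0.24 with the median member as reference, and 0.24 against 0.22 with equal medians. Among the 246 members measured by more than 1 spot, the median SD between spots of an array was 0.059, and the SD between arrays was above the spot SD for 219. Without root array 4 the median SD was 0.14 for the members and 0.14 for all models with a code.

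**Figure D3:**
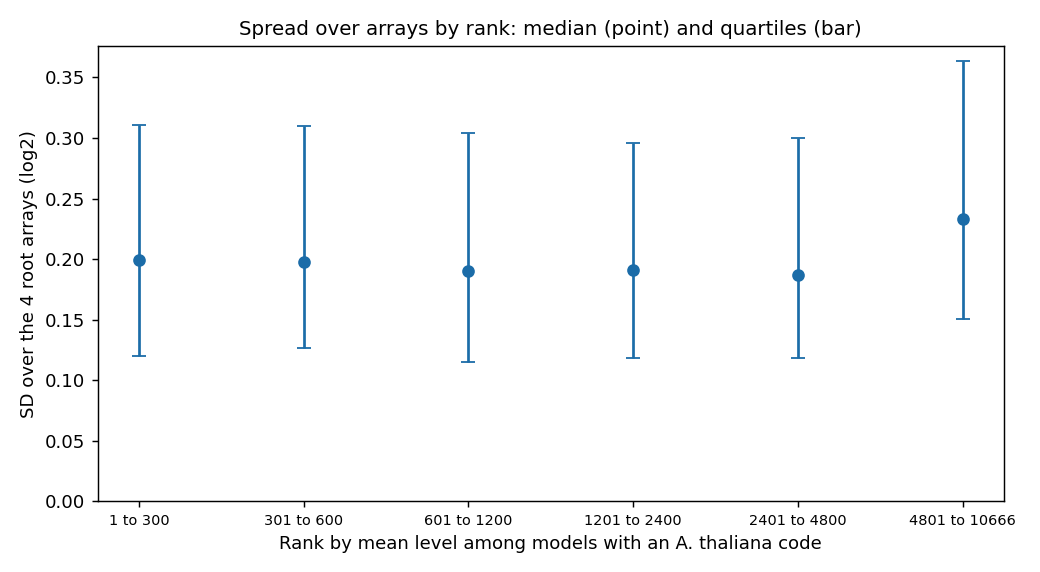
SD over the 4 root arrays, in log2 units, for 6 groups of models with an A. thaliana code ordered by rank; points are medians over the models of a group and bars the quartiles. The medians lie between 0.19 and 0.20 down to rank 4800 and at 0.23 below it.

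For 15 members (5.0%) a single array lay far from the other 3, by the size of its gap relative to the range, against 6.98% of all models with a code. A range of 2-fold or more was found for 38 members, against 13.1% of all models with a code. Of the 38, 27 (71.1%) were highest on array 4 and 26 (68.4%) lowest on array 1. Among all models with a code and such a range, 39.7% were highest on array 4 and 34.3% lowest on array 1. A further 10 of the 38 (26.3%) were lowest on array 4, against 51.1% of those models. The number of such members was 5 without array 4 (1.7%, against 2.5% of all models with a code) and 18 without array 1 (6.0%, against 8.7%). It was 37 without array 2 and 35 without array 3, or 12.3% and 11.7%, against 12.3% and 11.8% of all models. With spike-in scaling 117 members (39.0%) had a range of 2-fold or more, against 63.7% of all models with a code. Of these 117, 14 were among the 38, and 4 of the 38 were still highest on array 4 and lowest on array 1.

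The other lists also exceeded the 2.81% of all models with a code, a description only, since the lists were chosen with earlier results known. Of 12 chaperones well above background HSC70-1 was a member (8.3%), with levels of 5.74, 5.94, 6.26 and 6.05. Of 12 glycolysis and fermentation models, GAPC1 and PGK3 were members (16.7%). Of 24 histone models, 3 were members (12.5%), and the linker histone H1.1 was added later. Of 5 metallothionein and metal-handling models, the copper chaperone ATX1 was a member (20%) at 4.11, 4.21, 4.30 and 4.23. Of 19 tubulin and actin models, ACT8, ACT7 and TUA5 were members (15.8%).

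The 50 ribosomal protein members comprised 24 of the small subunit and 26 of the large subunit, with 42 different protein names, so several names were present as more than 1 gene copy. The brightest were RPS9 at 5.85, 5.97, 5.96 and 6.02, and RPL18 (AT3G05590) at 5.88, 5.95, 5.92 and 6.00. Their levels ranged from 3.99 to 5.95, and 7 stood among the brightest 50 models. Their median SD over the arrays was 0.13 (n = 4 arrays for each model), against 0.20 for all 300 members. For all 123 listed ribosomal models well above background it was 0.19, against 0.22 for all models with a code. An SD under 0.1 was found for 19 of the 50 (38.0%), for 61 of the 300 members (20.3%) and for 14.3% of all models with a code.

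Ribosomal copies of the same protein did not all behave alike. RPL27 from AT3G22230 had levels of 5.04, 5.06, 5.01 and 5.21. RPL27 from AT4G15000 had 4.59, 4.36, 3.81 and 3.47, with array 1 highest and array 4 lowest. RPS14 from AT3G11510 read 5.04, 5.0, 5.06 and 5.09, and RPS14 from AT2G36160 read 5.29, 5.59, 5.72 and 6.09. RPS29, at 4.05, 3.63, 4.27 and 4.70, and the second RPL27 were the 2 ribosomal members, of 50, with a range of 2-fold or more. Such a range was found for 13.1% of all models with a code. RPL36a (4.49, 4.32, 4.00 and 3.62) and RPL21 (4.45, 4.19, 3.92 and 3.51) also had array 1 highest and array 4 lowest. Set to spike-in RNA, 46 of the 50 were lowest on array 4, against 77.6% of all models with a code, and the median SD became 0.48, against 0.39 for all members. With quantile normalization it was 0.18, against 0.17 for all members. With equal medians it was 0.15 against 0.24, and with the median member as reference 0.16 against 0.18. The narrower spread of these 50 members thus depended on the scaling.

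All 6 members among the translation factors came from the list. FBR12, the translation factor eIF5A, had levels of 5.67, 5.85, 6.09 and 6.24. The elongation factor eEF1A from AT5G60390 had 5.60, 5.80, 6.02 and 6.28, and eEF1A from AT1G07930 had 5.14, 5.37, 5.59 and 5.79. These 3 were lowest on array 1 and highest on array 4, whereas the eEF1B subunits were level: the delta subunit read 5.40, 5.46, 5.48 and 5.38, and the beta subunit 5.38, 5.48, 5.47 and 5.37. After spike-in scaling all 6 were lowest on array 4, as were 77.6% of all models with a code. The glycine-rich RNA-binding proteins GRP7 (5.91, 6.19, 6.21 and 5.68) and GRP8 (5.75, 5.93, 6.05 and 5.60), which act in the circadian clock, cold response and RNA processing, were lowest on array 4 and highest on array 3. Near-identical copies of eEF1A, ubiquitin and histone H4 can share signal, and whether their probes tell them apart was not tested.

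Aquaporins held 5 places for PIPs, 5 for TIPs and 1 for SIP1A, a small basic aquaporin, and 7 of these 11 were within the first 42 ranks. PIP2;1 read 6.22, 6.41, 6.51 and 6.89, and PIP2;7 read 6.10, 6.33, 6.37 and 6.48. PIP1;1 had the smallest SD of all members, 0.031, with levels of 5.79, 5.79, 5.86 and 5.83. TIP1;2, at 5.23, 5.56, 5.66 and 6.21, had the widest range of the 11. Of the 11, 10 were lowest on array 1 and 9 highest on array 4, against 27.3% and 37.1% of all models with a code. With spike-in scaling none of the 11 was lowest on array 1 or highest on array 4, against 0.656% and 3.15%. With quantile normalization 4 were lowest on array 1 and 6 highest on array 4, against 26% and 38.4%. Another 4 were then lowest on array 4, against 38.6% of all models with a code.

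The cell wall group joined secreted glycoproteins with wall enzymes. Among the 26 were 8 AGPs and 2 fasciclin-like proteins. AGP31 had levels of 6.06, 6.09, 6.33 and 6.56, and AGP12 had 5.95, 6.18, 6.33 and 6.33. The extensin EXT1 read 5.62, 5.72, 6.03 and 6.34. AGP1 read 3.92, 4.27, 4.83 and 3.79, AGP2 4.10, 4.39, 4.65 and 4.14, and AGP15 4.64, 4.88, 5.34 and 4.66, with array 3 the highest for all of them. They were picked by their values, and AGP31 and AGP12 were highest on array 4. Of the 26, 9 were highest on array 3, as were 72 of all 300 members. CTL1, a chitinase-like protein needed for cellulose deposition, was steady at 4.57, 4.49, 4.55 and 4.52. The UDP-arabinose mutase RGP1 was also narrow at 4.93, 4.92, 5.01 and 4.85. Of the 26, 8 were lowest on array 4 and 11 highest on it, against 40.8% and 37.1% of all models with a code. XTH7, an enzyme of xyloglucan remodelling, and RHS13, a root hair gene, were picked from those 8 after their values were seen. They read 5.27, 5.13, 5.26 and 3.95, and 4.63, 4.68, 4.44 and 3.45. Without array 4 their SDs were 0.078 and 0.13, against 0.63 and 0.57 with it. The median SD of the 26 was 0.24.

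The group of ER body proteins, myrosinase-associated proteins and jacalin lectins had 7 members. MLP34 and the MLP-like AT4G14060 were counted in it, although they are latex-protein relatives and none of these. Their SDs of 0.17 and 0.72 were the smallest and the largest of the 7. The group had the widest spread among the groups of at least 5, with a median SD of 0.56. PYK10, the root ER body beta-glucosidase, had levels of 5.90, 5.92, 5.93 and 4.80. BGLU22, a related beta-glucosidase, had 4.54, 4.99, 4.96 and 3.75. PBP1, the jacalin lectin that binds PYK10, had 5.13, 5.27, 5.40 and 4.46, and the jacalin-related JAL34 had 4.79, 5.10, 5.43 and 4.53. The MLP-like model had 5.83, 5.59, 5.81 and 4.32. These 5 were lowest on array 4, against 40.8% of all models with a code, as they were when the arrays were scaled to spike-in RNA, to equal medians or to the median member, or quantile normalized. MLP34 and the nitrile-specifier protein NSP5 were not, with the 75th percentile scaling. NSP5, which directs glucosinolate breakdown to nitriles, read 3.81, 4.93, 4.59 and 5.36. Without array 4 the median SD of the 7 was 0.18.

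Other members serve detoxification and secondary metabolism. GSTF9, a glutathione S-transferase, read 6.24, 6.29, 6.45 and 5.26, and GSTF10, its neighbouring gene in A. thaliana, read 5.10, 5.02, 5.09 and 4.35. The cytosolic peroxiredoxin TPX1 read 4.88, 4.95, 5.16 and 5.11, and the mitochondrial superoxide dismutase MSD1 read 4.33, 4.33, 4.38 and 4.07. THAD, an enzyme of the thalianol pathway of root triterpenes, read 4.55, 4.26, 4.74 and 3.56. UGT72E3, a glucosyltransferase of monolignols, read 4.84, 4.75, 4.98 and 4.09. These members were picked from several groups. In the whole groups 4 of 7 redox members and 3 of 6 defence-related members were lowest on array 4, against 40.8% of all models with a code. The brightest of each, APX1 and PDF2.3, were lowest on array 1. THAD came from the sterol, lipid and fatty acid enzymes, where 1 of 8 members was lowest on array 4. UGT72E3 came from the members with a known role that shared no group, where 5 of 26 were. Without array 4 the SD of GSTF9 was 0.11, against 0.54 with it. The class III peroxidases were PRXR1 (6.52, 6.48, 6.56 and 6.76), PER28 (5.15, 5.43, 5.70 and 5.50), PER57 (5.08, 5.20, 5.40 and 5.11) and RCI3 (4.63, 4.56, 4.68 and 4.30). All had ranges under 2-fold, as did 86.9% of all models with a code.

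Nitrogen uptake and assimilation gave 9 members. The ammonium transporter code AMT1;1 was carried by 3 models, with levels of 5.42, 5.72, 5.99 and 6.61 for the first, 4.93, 5.18, 5.54 and 6.15 for the second, and 3.66, 3.99, 4.37 and 4.54 for the third. All 3 were lowest on array 1 and highest on array 4 with the 75th percentile scaling and none with spike-in scaling, where the first read 6.0, 5.88, 5.76 and 6.10. As copies of 1 gene code they are not independent. WR3, also called NRT3.1, which works together with nitrate transporters of high affinity, read 5.49, 5.65, 6.01 and 5.92. The glutamine synthetases, which fix ammonium into glutamine, were level: GLN1;2 read 5.39, 5.23, 5.50 and 5.29, GLN1;4 read 4.21, 4.08, 4.35 and 4.14, and the plastid form GLN2 read 4.45, 4.39, 4.50 and 4.47. ASPGB1, an asparaginase that releases ammonium from asparagine, was counted under amino acid, sulfur and thiol synthesis and not among these 9. It read 3.54, 3.80, 3.74 and 4.95, high on array 4.

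Sulfur and methyl metabolism was represented by enzymes from sulfate to S-adenosylmethionine. The ATP sulfurylase APS4 read 4.73, 4.82, 4.89 and 4.89. The cysteine synthase OASA1 read 4.72, 4.92, 4.74 and 4.54. The methionine synthase MS2 read 5.62, 5.64, 5.81 and 6.05, whereas MAT4, which makes S-adenosylmethionine, read 5.64, 5.65, 5.62 and 4.85. MS2 was highest and MAT4 lowest on array 4 with this scaling, but with spike-in scaling MS2 read 6.19, 5.80, 5.58 and 5.54 and both were lowest on array 4. Without array 4 the SD of MAT4 was 0.017, against 0.40 with it. GSH1 read 3.72, 3.93, 4.09 and 4.22. KARI, an enzyme of branched-chain amino acid synthesis, was level at 5.10, 5.20, 5.23 and 5.22. IPMI2, a subunit of isopropylmalate isomerase, read 4.33, 4.22, 4.28 and 3.32.

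The 15 energy proteins of mitochondria and vacuole all had ranges under 2-fold, as did 87.3% of the 300 members and 86.9% of all models with a code. Their median SD was 0.18, against 0.20 for the 300 members. The adenine nucleotide carrier AAC1 had 5.31, 5.36, 5.60 and 5.46. The proteolipid subunit VHA-c of the vacuolar proton pump had 4.97, 5.24, 5.50 and 5.78. The mitochondrial ATP synthase beta subunit had 4.05, 4.27, 4.56 and 4.83, with array 4 highest, while the ATP5 subunit of the same complex had 4.51, 4.50, 4.20 and 3.95, with array 4 lowest. The cytochrome oxidase subunit COX5C was level at 4.42, 4.50, 4.36 and 4.35. In lipid metabolism, the sterol enzyme DWF1 was level at 5.47, 5.57, 5.60 and 5.55, and the oleate desaturase FAD2 read 4.57, 4.52, 4.76 and 4.77.

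Protein turnover was represented by ubiquitin, proteases and autophagy. The polyubiquitin UBQ3 read 6.04, 6.19, 6.29 and 6.80, UBQ4 read 5.76, 5.87, 5.93 and 6.52, and UBQ14 read 5.44, 5.67, 5.86 and 6.06. The AAA-ATPase CDC48A read 3.91, 4.05, 4.20 and 4.27. All 7 members of the ubiquitin group were lowest on array 1 and highest on array 4, against 20.1% of all models with a code. With quantile normalization 5 were lowest on array 1 and 6 highest on array 4, against 26% and 38.4%. After spike-in scaling none of the 7 was either, against 0.656% and 3.15%. The autophagy members showed the same ends: the cargo receptor NBR1 read 5.17, 5.41, 5.48 and 5.90, ATG8C read 3.90, 4.24, 4.16 and 4.65, and ATG8E read 3.66, 4.00, 3.97 and 4.78. All 3 kept these ends with quantile normalization. After spike-in scaling 1 of these 3 was highest on array 4, against 3.15% of all models, and none lowest on array 1, against 0.656%. Without array 4 the median SD of the autophagy members was 0.18, against 0.31 with it, and that of the ubiquitin group 0.17, against 0.30. Among the 7 proteases, RD19 read 5.94, 6.18, 6.44 and 6.68, and the vacuolar aspartic protease APA1 5.63, 5.83, 6.00 and 6.08. The cysteine protease CP2 was level at 5.52, 5.53, 5.58 and 5.30.

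The 3 dormancy-associated members are small proteins whose transcripts in A. thaliana are high in dormant buds and in sugar-starved tissue. All 3 had ranges of 2-fold or more, as had 13.1% of all models with a code. DRM1 had 4.32, 5.18, 5.36 and 6.31, and the related AT1G56220 had 5.40, 5.93, 5.85 and 6.80. For all 3, DRM2 included, array 4 was highest under each of the 5 scalings compared, and array 1 was lowest for 3 under 4 scalings and for 2 under spike-in scaling. Without array 4 their median SD was 0.52, against 0.69 with it. With spike-in scaling the range was under 2-fold for all 3, as for 36.3% of all models with a code. DRM1 then had 4.90, 5.35, 5.13 and 5.81. A list of dark- and sugar-responsive genes, chosen after these values were seen, had 3 measured models, none a member: DIN1 read -4.88, -0.19, -3.07 and -2.14, AKINBETA1 -2.68, -2.51, -2.23 and -0.87, and KMD4 -0.90, 0.52, -0.04 and 1.41. All 3 were lowest on array 1 and 2 were highest on array 4. Their part in the spread of the members was not tested.

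The 15 members of signalling and transcription began at rank 111. The 14-3-3 protein GRF8 read 5.04, 4.98, 5.0 and 5.15, and a catalytic subunit of protein phosphatase 2A (AT3G58500) read 4.86, 4.95, 4.88 and 4.91. LBD37, a nitrogen-responsive transcription regulator, read 4.51, 4.49, 4.36 and 4.36. A MYB-related factor (AT1G74840) read 4.57, 4.92, 4.82 and 5.78, the light-signalling B-box protein BBX24 read 4.60, 4.62, 4.69 and 5.61, and the ubiquitin ligase RHA2A of abscisic acid signalling read 3.77, 3.96, 4.04 and 5.0. These last 3 were high on array 4 and closer together on the others. They made up the 3 of 15 with a range of 2-fold or more, against 13.1% of all models with a code. Without array 4 their SDs were 0.18, 0.050 and 0.14, against 0.53, 0.49 and 0.55 with it.

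Members with the code of a plastid gene were few, and the group called plastid-encoded was named from that code alone. The models of PETA and ATPE lay on scaffold 2, a chromosome of the assembly. Whether these models are plastid-encoded was not tested. The code of the plastid 23S ribosomal RNA, RRN23S, had levels of 5.29, 5.55, 5.80 and 5.82. PETA, cytochrome f, had 4.57, 4.75, 4.45 and 4.38, and ATPE, a subunit of the plastid ATP synthase, was carried by 2 models, at 4.54, 4.31, 4.23 and 4.00 and at 4.42, 4.30, 4.08 and 3.96. CP12-1, a nuclear-encoded regulator of the Calvin cycle, varied far more, at 3.21, 4.51, 4.32 and 4.97. Array 1 was the low one for CP12-1.

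The 6 members with the largest SD included 3 with no function assigned. AT3G15450, at rank 47, had levels of 4.38, 5.88, 5.67 and 7.12, an SD of 1.12. AT4G05150 had 3.57, 4.05, 4.17 and 5.60, and AT3G29240 had 3.31, 4.09, 3.94 and 5.33. Under spike-in scaling AT3G15450 had 4.96, 6.04, 5.44 and 6.61, so that array 4 was highest and array 1 lowest there too. The other 3 were DRM1, CP12-1 and the MLP-like AT4G14060. The 6 with the smallest SD were PIP1;1, CTL1, AT5G19590, RPS14 (AT3G11510), RPL15 at 4.43, 4.44, 4.51 and 4.43, and the phosphatase 2A subunit. All of the smallest SDs, from 0.031 to 0.039, hold for scaling to the 75th percentile; with spike-in scaling PIP1;1 had an SD of 0.45.

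**Figure D4:**
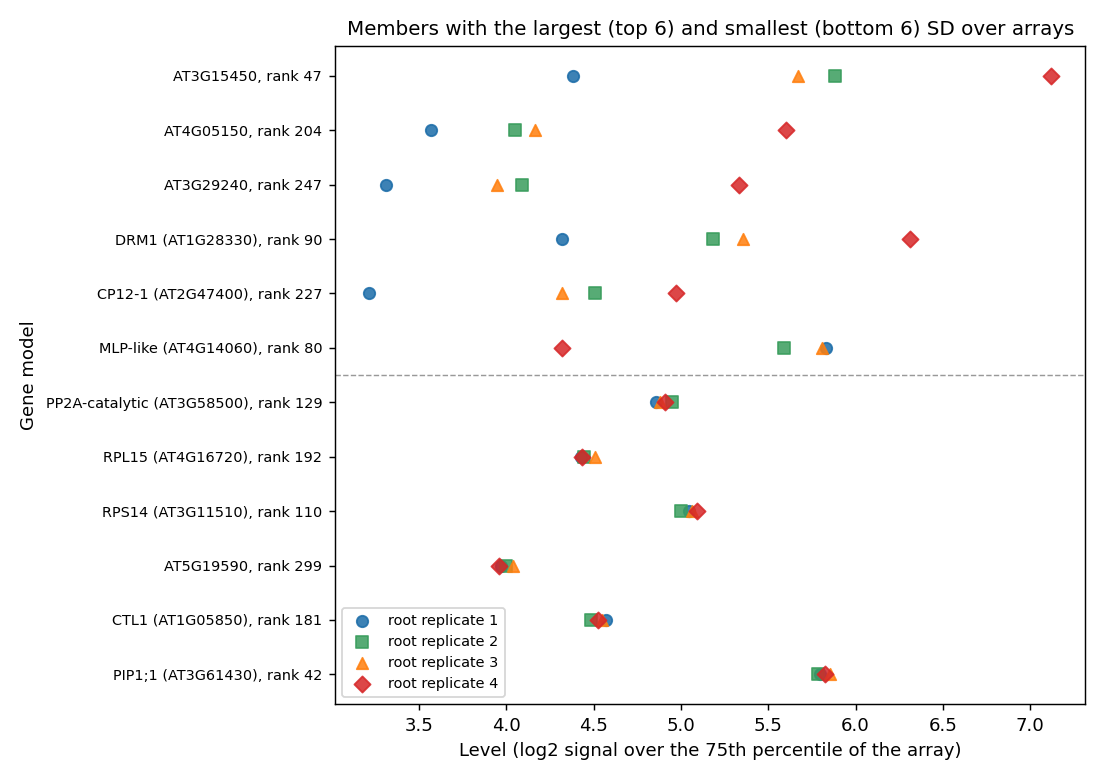
Level on each of the 4 root arrays (marker shape and colour) for the 6 members with the largest and the 6 with the smallest SD; the x axis is log2 signal over the array's 75th percentile. Array 1 is lowest and array 4 highest for 5 of the 6 variable members with this scaling, array 4 is lowest for the MLP-like model, and the markers of the stable members overlap. With spike-in scaling 2 of those 5 keep array 1 lowest and array 4 highest.

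The 36 members without a function had a median SD of 0.31. A range of 2-fold or more was found for 12 of them, against 38 of all 300 members and 13.1% of all models with a code. Of these 36, 23 were lowest on array 1 and highest on array 4, against 20.1% of all models with a code, and with spike-in scaling 2 were, against 0.244%. Without array 4 their median SD was 0.22. AT5G65207, at rank 28, was the brightest, with 5.31, 5.82, 6.03 and 6.68, and AT4G13615 followed with 5.58, 5.87, 6.14 and 6.15. Both were chosen after their values were seen. No role is given here for these codes.

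The members' levels were also set against the arrays' overall signal. Each level already has log2 of its array's 75th percentile subtracted. The reverse order is therefore partly built in for signals that change less than that percentile, and the counts are a description only. For 110 members (36.7%) the 4 levels ran in the exact reverse order of the arrays' 75th percentiles, against 14% of all models with a code, and for 23 (7.7%) in the same order, against 18.7%. After quantile normalization the reverse order was found for 48 members (16.0%, against 12.6% of all models) and the same order for 73 (24.3%, against 18.3%). After spike-in scaling the reverse order was found for 0 and the same order for 222 (74.0%, against 71.8%), so the direction depended on the scaling. With the 75th percentile scaling the reverse order was found for 8 of 11 aquaporins, 6 of 7 of ubiquitin and proteasome and 10 of 26 cell wall members, for 12 of 50 ribosomal proteins and for 0 of 7 of the ER body group. The part of overall signal in these differences was not tested.

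To remove any shift common to an array, levels were also expressed relative to the median member of each array, a reference added after the data had been seen. Setting each array to its median member places groups on both sides of 0 by construction, so the values give only the order of the groups within an array. Dormancy-associated members had median deviations of -0.74, -0.05, 0.01 and 0.72 on arrays 1 to 4. Ubiquitin and proteasome members had -0.16, -0.09, 0.03 and 0.26, and aquaporins -0.15, -0.04, 0.00 and 0.20. Ribosomal proteins had 0.12, 0.02, -0.05 and -0.13, and the members with a plastid code 0.27, 0.09, -0.11 and -0.29. The ER body group had 0.11, 0.22, 0.28 and -0.70. Relative to the median member, array 4 was thus the highest for dormancy, ubiquitin and aquaporin members. Array 4 was the lowest for ribosomal members, members with a plastid code and the ER body group.

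**Figure D5:**
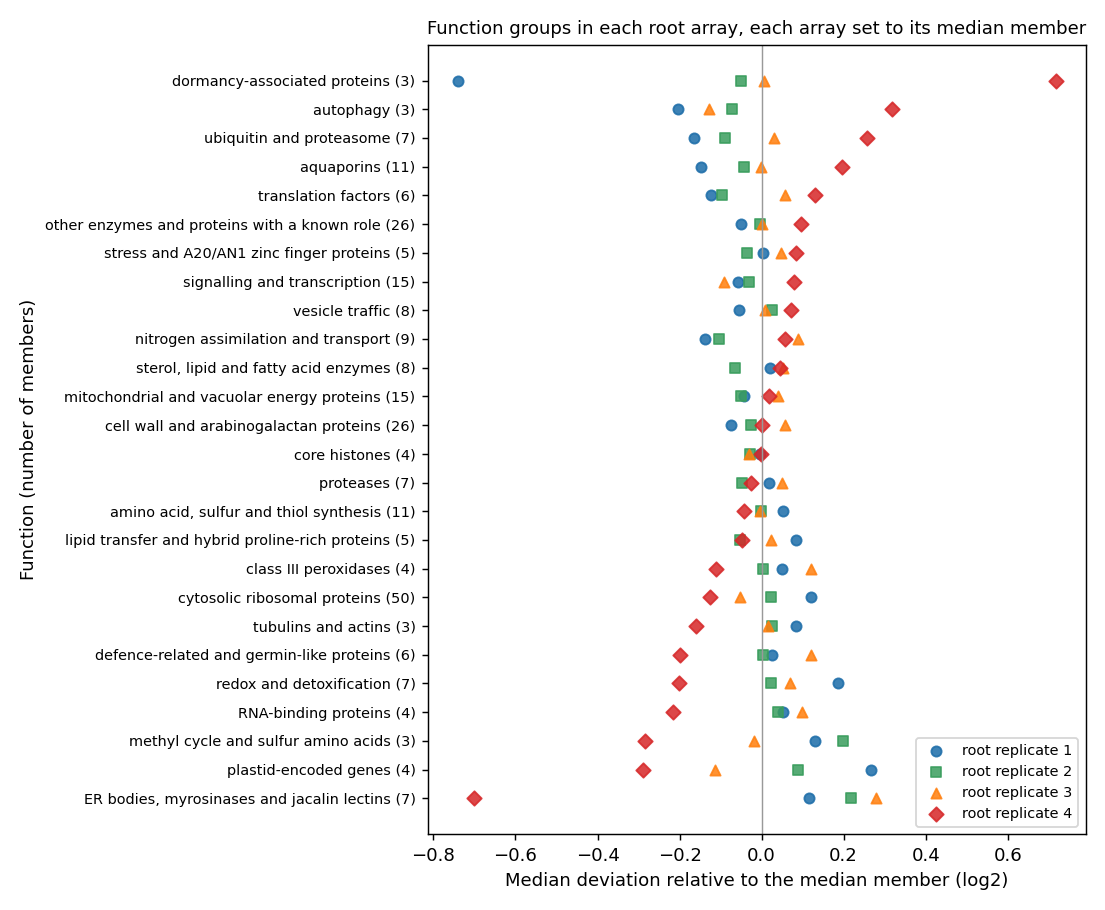
Median deviation of each function group of at least 3 members from its own mean over the 4 root arrays, in log2 units, with each array set to its median member; markers are the arrays. Array 4 lies highest for dormancy-associated members (0.72) and lowest for the ER body group (-0.70), a contrast within an array that a common scaling shift does not alter.

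Several codes occurred in more than 1 member. Besides AMT1;1, the code of TIP2;3 was carried by a model at rank 4 and another at rank 148, which read 4.37, 4.72, 4.93 and 5.07. UBQ10 was carried by models at ranks 52 and 130, with 5.38, 5.53, 5.76 and 6.06 for the first and 4.52, 4.79, 5.01 and 5.25 for the second. The ARF GTPase code ARFA1E was carried by models at ranks 138 and 139, with SDs of 0.11 and 0.059. Models with the same code had array 1 lowest and array 4 highest for AMT1;1, TIP2;3 and UBQ10 with the 75th percentile scaling, but not all did for ARFA1E and ATPE.

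The members were spread over the genome: scaffolds 1 to 8, the chromosomes of the A. lyrata assembly, held 50, 28, 45, 37, 24, 50, 37 and 27 of them, and 2 lay on smaller scaffolds. These were between 2.17% and 3.25% of each scaffold's detected models with a code.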

How the data were processed

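Signals of 4 root arrays (1-colour Agilent, Cy3) were read from the scanner files. Per the file headers these were made with Feature Extraction 10.10.1.1, and the processed signal deposited for each spot is an intensity after background subtraction. The authors' deposited value table holds log2 values of the same arrays; it correlated at r of 0.9999 or above with the scanner log2 deviations from each probe's mean over the arrays, and its column medians were 0.02, -0.05, 0.06 and 0.09 for root arrays 1 to 4. It is centred per probe, its direction follows the scanner signal, and the authors' scaling of it is not given in the labels or headers used here.

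Control spots and spots flagged as outliers were left out, log2 signals of the spots of a probe were averaged, and log2 of the 75th percentile of each array was subtracted. A probe counted as detected where at least a share of 0.5 of its spots was well above background on every root array. For 477 models with 2 probes the probe with the higher mean was used, and 4 probes were lost to outlier spots. After the 62976 features, each file ended in 11 to 80 leftover lines that are not spots and were left out. The A. thaliana code was read from the model's name.

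With a single group there is no test and no p-value. Errors are SDs over the 4 replicates, and the number of arrays limits the precision. The members and the function lists were chosen with earlier results of these data known. Named genes were the 20 brightest, the 2 brightest of each function, the 6 largest and 6 smallest SDs and the models beside the edge of the set; other members are named only where a sentence is about their group. Roles come from the A. thaliana code. Alternatives were limma 3.58.1 normexp background (offset 50, R 4.3.3), quantile normalization, equal medians, spike-in scaling, the value table and leaving out each replicate. Rankings were tested on simulated data. Flower bud arrays were not used here.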

Additional observations from a re-analysis of the deposited data

Results flagged for a closer look

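Levels of the named members and of the function groups were examined for an array that lay far from the other 3, by the gap to its nearest neighbour as a share of the whole range over the 4 root arrays. Chance flags about 1 in 20 such sets of 4, and 6.98% of all models with a code were flagged, against 15 of the 300 members (5.0%). Of those 15, 10 were low on array 4. PYK10 had a gap of 0.967 of its range, with array 4 low. MAT4, which makes S-adenosylmethionine, had 0.959, with array 4 low. The MLP-like model AT4G14060 had 0.844, with array 4 low.

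Among the function groups, the median level of the methyl cycle and sulfur amino acid members had a gap of 0.968, with array 4 low; this group has 3 members, its median on array 4 is MAT4's own value, and MS2 was highest on array 4. The median of signalling and transcription members had 0.936 and that of amino acid, sulfur and thiol synthesis 0.894, both with array 4 high. These are medians of levels over different models: the median deviations of the members on arrays 1 to 4 were -0.19, -0.04, -0.04 and 0.18 for the first and -0.08, -0.01, 0.05 and 0.05 for the second, where array 4 did not stand apart.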

How the results depend on the processing

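Between 277 and 300 of the members stayed among the brightest 300 with normexp background, quantile normalization, outlier spots kept, the mean of a model's probes or ranking by the lowest array. Leaving out each replicate kept 282 to 296. The median SD of the members was 0.39 with spike-in scaling, against 0.17 to 0.24 with the other scalings, normexp and the value table, and 0.14 to 0.23 with a replicate left out. The number of members under 2-fold was 183 with spike-in scaling, 255 to 270 with the others and 263 to 295 with a replicate left out. Ribosomal proteins were 12.3% of the brightest 600, against 16.7% of the brightest 300. Mean levels moved by more than their SD for 15 of 79 named genes with normexp and for 0 with quantile normalization. The median member as reference, outlier spots kept for the lists, and the settings for single genes were chosen after seeing the data. The value table is centred per probe and could not rank models. No paired analysis was possible because 1 group was described and nothing was tested between groups.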
